A study of Homo sapiens with 6 samples.

Results

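DICER1, the enzyme that cuts microRNA precursors to their mature length, and HMGA2, a chromatin protein whose message is a classic target of the let-7 microRNAs, were both lower at their brightest probe sets in MDA-MB-231 cells with MYOSIN10 shRNA than in cells with scramble shRNA. They belong to a set of 10 genes: DICER1, DROSHA, DGCR8, XPO5, TARBP2, AGO2, TNRC6B, LIN28B, HMGA1 and HMGA2. Each gene was read by every probe set that the array's annotation assigns to its symbol alone, 32 of the 54675 on the array in all, and 9 of the 10 genes are among the 19775 that the array reads in this way. Each probe set combines several short array sequences that match part of a message. The genes were chosen by their place in the microRNA pathway with the log2 fold changes of this same comparison already known, DICER1 and HMGA2 in particular, so their values describe the 6 arrays and are not an independent test. Calls below come from 1 model fitted over all 33370 probe sets bright enough to be kept (limma, Benjamini-Hochberg adjusted p under 0.05), and "called" means past that threshold.

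The knockdown cells were 3 samples of the triple-negative human breast cancer line MDA-MB-231 that stably expressed an shRNA against MYOSIN10 (now MYO10, the motor of filopodium tips), and the cells they were set against were 3 samples that stably expressed a scramble shRNA. The cells of both groups grew in L-15 medium with serum, and each sample was read on 1 Affymetrix array. Whether the cells were clones or pools, which hairpin was used and whether the numbers 1 to 3 stand for separate cultures is not stated, so errors and p-values cover only the variation among these samples, and that variation may be technical. In RNA from whole cultures, fewer cells of a kind and less RNA per cell cannot be told apart.

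A microRNA gene is transcribed as a long primary RNA with a hairpin. In the nucleus the Microprocessor, made of the nuclease DROSHA and its RNA-binding partner DGCR8, cuts the hairpin free, and XPO5 carries it to the cytoplasm. There DICER1, helped by the RNA-binding protein TARBP2, removes the loop, and one strand enters AGO2. AGO2 and its TNRC6 partners then silence messages whose 3′ untranslated region pairs with the seed near the 5′ end of the microRNA. LIN28B binds let-7 precursors and blocks their maturation. HMGA1 and HMGA2 are small proteins that bind AT-rich DNA, and the long 3′ untranslated region of HMGA2 carries several let-7 sites. DICER1 is itself a known target of let-7 and of miR-103 and miR-107.

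The let-7 family is shown because DICER1 and HMGA2 are known targets of it and LIN28B blocks its maturation. Its sites in the target messages were not located here. Its 9 mature forms, including miR-98, come from 12 loci in RefSeq (GRCh38.p14), and all 9 share 1 seed. Below, each is written 5′ to 3′ with the seed, bases 2 to 8, in capitals.
hsa-let-7a-5p: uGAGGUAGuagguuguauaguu
hsa-let-7b-5p: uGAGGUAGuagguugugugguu
hsa-let-7c-5p: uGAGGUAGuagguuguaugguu
hsa-let-7d-5p: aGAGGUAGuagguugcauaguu
hsa-let-7e-5p: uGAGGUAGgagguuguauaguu
hsa-let-7f-5p: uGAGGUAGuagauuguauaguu
hsa-let-7g-5p: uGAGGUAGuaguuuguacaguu
hsa-let-7i-5p: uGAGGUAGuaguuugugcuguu
hsa-miR-98-5p: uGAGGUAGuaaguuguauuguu
Outside the seed, the others differ from let-7a at 1 to 4 of 22 positions. The pair known to target DICER1 shares another seed, again in capitals.
hsa-miR-103a-3p: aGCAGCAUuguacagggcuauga
hsa-miR-107: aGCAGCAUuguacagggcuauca
The hairpin of let-7a from the MIRLET7A1 gene, at chr9:94175957-94176036 on the plus strand, holds the loop that DICER1 removes. The 2 arms that become mature strands are in capitals, and the loop is the lower-case stretch between them. The lower-case bases outside the arms are not part of that loop.
MIRLET7A1: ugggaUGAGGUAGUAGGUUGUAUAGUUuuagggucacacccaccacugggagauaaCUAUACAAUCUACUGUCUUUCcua
The values reported here read messenger and host RNA, and mature microRNAs were not analysed here.

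The deposited values are log2 signals, and levels below are log2(signal + 16), on which the lowest deposited value, a log2 signal of 0 or a linear signal of 1, becomes 4.09. A fold change on this scale understates the change of dim probe sets. DGCR8 has no probe set under a single symbol, because all 4 that carry its symbol also name another gene, and 3 of the 4 that carry AGO2 were left out for the same reason. Of the 32 member probe sets, 26 passed the filter on dim signal, in 8 genes. The 6 that did not were 3 of HMGA2, 2 of DICER1 and the single one of LIN28B. Of the 26 kept, 3 were called, all lower, and 23 were not. Over all kept probe sets 1.06% were called, 0.692% higher and 0.366% lower, and nothing is read from the members' count because this comparison was known when they were chosen. The median log2 fold change was -0.019 over the 26 and -0.002 over all 33370.

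MYO10, the targeted gene, was called lower at its brightest probe set, at 10.7, 11.39 and 10.64 on MYOSIN10 shRNA arrays 1 to 3, against 11.57, 11.96 and 11.86 on scramble arrays 1 to 3 (limma adjusted p = 0.0318). Array 2 was the highest of the MYOSIN10 shRNA arrays at that probe set. The 4 other kept MYO10 probe sets were not called, with log2 fold changes of -0.74, -0.58, -0.84 and, the other way, 0.31 (limma adjusted p from 0.0514 to 0.647). Scramble array 2 stood apart from its group, with a mean correlation of 0.977 with the other scramble arrays and 0.978 with the MYOSIN10 shRNA arrays, where the other 5 arrays each correlated better with their own group. Without it 1468 probe sets were called, against 353 with all 6 arrays. Defining markers of this line were bright, with VIM, CD44, MSN, CAV1 and AXL at or above the 99.1th percentile of every array, while the matrix gene SPARC reached 61.3 at most. Of 7 luminal markers, PGR, CDH1 and FOXA1 did not pass the filter, but GATA3 lay at the 83.8th percentile or above. The receptor genes ERBB2 and ESR1 passed it too, at percentiles from 76.7 to 78.9 and from 58.2 to 64.9. The summed linear signal of the luminal markers did not overlap between the groups, from 2240 to 2445 on MYOSIN10 shRNA arrays and from 1832 to 1991 on scramble arrays. EPCAM, an epithelial adhesion molecule, had 8.90, 8.74 and 8.65 with MYOSIN10 shRNA and 8.09, 8.55 and 7.34 with scramble shRNA, a log2 fold change of 0.77 ± 0.24 (SE, limma adjusted p = 0.177). Of the 4 luminal genes that passed the filter, EPCAM was the only 1 whose groups did not overlap, as was so for 18.1% of all kept probe sets. Below the filter and near the floor, CDH1 did not overlap either, at 4.73 to 5.32 with MYOSIN10 shRNA and 4.1 to 4.4 with scramble shRNA. PGR and FOXA1 overlapped. The groups of GATA3, the brightest luminal marker, overlapped. Whether luminal marker signal has a part in the members' values was not tested. That of 4 blood cell markers ran from 279.9 to 411.4 on MYOSIN10 shRNA arrays and from 317.1 to 380.4 on scramble arrays, and that of 5 fibroblast markers from 301.5 to 660 on MYOSIN10 shRNA arrays and from 231.2 to 478.8 on scramble arrays. None of these markers was at the lowest deposited value on any array, and 0 of the 4 lists' measured genes were called (limma), 1 of them, EPCAM, at an unadjusted p under 0.05.

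DICER1 fell at the 2 probe sets where its signal was brightest. The brightest, 212888_at, stood at 10.99, 11.18 and 10.99 on MYOSIN10 shRNA arrays 1 to 3, against 11.74, 11.56 and 11.72 on scramble arrays 1 to 3. All MYOSIN10 shRNA arrays lay below all scramble arrays, and the arrays numbered 2 were the nearest to the other group on both sides. The mean was 11.05 ± 0.11 with MYOSIN10 shRNA and 11.67 ± 0.098 with scramble shRNA (SD, n = 3 each), a log2 fold change of -0.62 ± 0.09 (SE) or 65.1% of the level in scramble cells. The next, 213229_at, stood at 10.04, 9.84 and 10.03 with MYOSIN10 shRNA and at 10.76, 10.67 and 10.71 with scramble shRNA, again without overlap. Its log2 fold change was -0.74 ± 0.10 (SE), 59.8% of the scramble level, with a scramble SD of 0.045.

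The other DICER1 probe sets were dimmer and were not called. Probe set 206061_s_at had values of 8.48, 8.76 and 8.65 with MYOSIN10 shRNA and of 8.95, 8.99 and 9.18 with scramble shRNA. Its groups did not overlap either, and its log2 fold change was -0.41 ± 0.13 (SE). Over all kept probe sets, 18.1% had groups that did not overlap, 8.94% with the MYOSIN10 shRNA arrays on the low side. The dim 216260_at pointed the other way, at 0.43 ± 0.32 (SE), with values from 5.84 to 6.41 in the MYOSIN10 shRNA group and from 5.48 to 6.10 in the scramble group, which overlapped. Below the filter, 216280_s_at and 216281_at reached at most the 37.4th percentile of any array.

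Which array was left out mattered more for one DICER1 probe set than for the other. The call of 213229_at held without any 1 of the 6 arrays, with a log2 fold change from -0.777 to -0.678. That of 212888_at ended without MYOSIN10 shRNA array 1 (-0.587) or 3 (-0.588) or scramble array 1 (-0.585) or 3 (-0.597), and held without either array numbered 2. Without scramble array 2 the 2 probe sets stood at -0.675 and -0.763.

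HMGA2 fell at its brightest probe set, while its other probe sets differed among themselves. Probe set 208025_s_at stood at 11.21, 11.14 and 11.15 on MYOSIN10 shRNA arrays 1 to 3, against 12.09, 11.66 and 12.12 on scramble arrays 1 to 3. The knockdown arrays were nearly equal, and scramble array 2 lay between them and the other scramble arrays. The mean was 11.16 ± 0.037 with MYOSIN10 shRNA and 11.96 ± 0.26 with scramble shRNA (SD, n = 3 each), a log2 fold change of -0.79 ± 0.11 (SE) and 57.7% of the scramble level. Without scramble array 2 the change was -0.94 (limma, called). The call ended without scramble array 1 (-0.724) or 3 (-0.713) and held without each of the other 4 arrays. With a single prior variance for dim and bright probe sets in eBayes, the HMGA2 call and both DICER1 calls ended, and 0 of all kept probe sets were called (limma, 3665 at an unadjusted p under 0.05).

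Of the 5 other kept HMGA2 probe sets, 0 were called with all 6 arrays. Probe set 1561633_at had 8.09, 8.48 and 7.83 with MYOSIN10 shRNA and 8.62, 8.61 and 8.93 with scramble shRNA, which did not overlap, and a log2 fold change of -0.59 ± 0.18 (SE). The dim 1559891_at stood at -0.49 ± 0.33 (SE), with overlap. The remaining 1558683_a_at, 1558682_at and 1567224_at, at group means between 7.20 and 8.13, had log2 fold changes of 0.07, 0.11 and -0.02, each smaller than its SE. Which HMGA2 transcripts each probe set reads was not analysed here. The others, 1568287_at, 1567223_at and 1568286_at, lay below the filter, the last at the lowest deposited value, 4.09 on this scale, on 2 arrays.

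**Figure D1:**
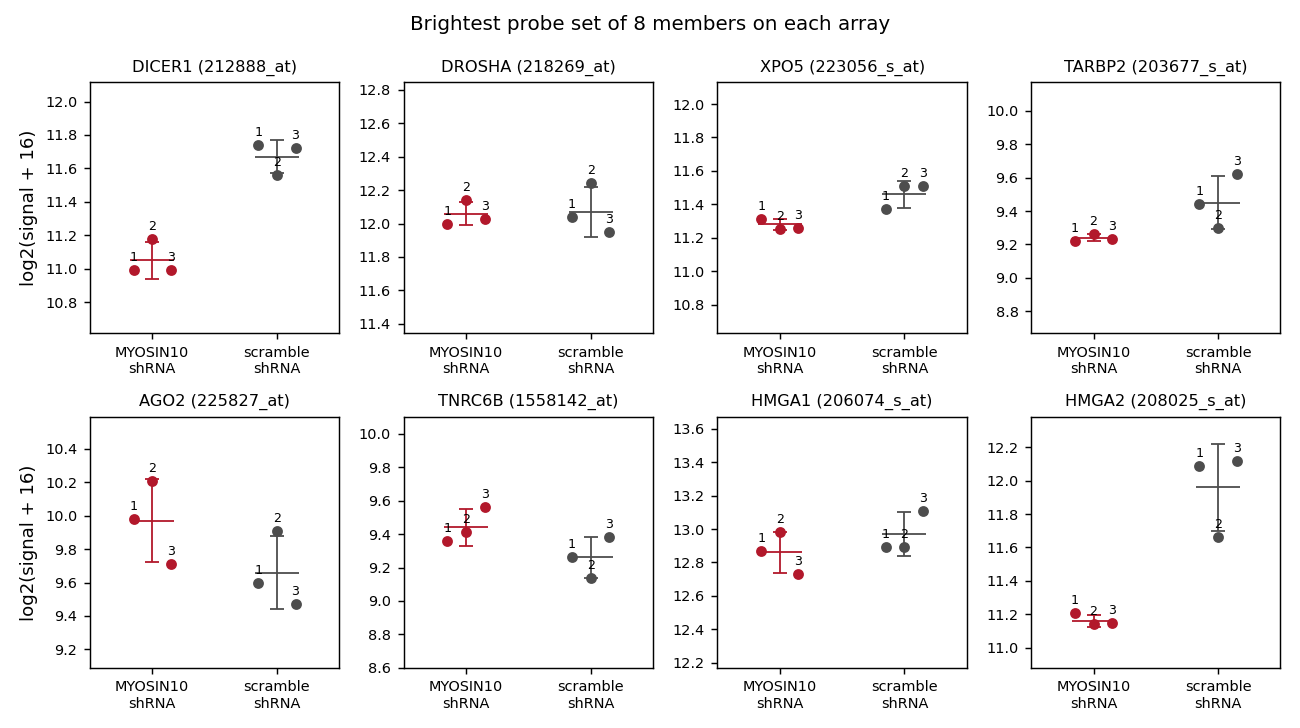
Each panel plots log2(signal + 16) of the brightest probe set of 1 gene, with MYOSIN10 shRNA arrays (red) left of scramble shRNA arrays (grey), digits for the array number, and a bar and whiskers for the mean ± SD of 3 arrays. All panels span the same height. The widest gaps are those of DICER1, with means of 11.05 with MYOSIN10 shRNA and 11.67 with scramble shRNA, and of HMGA2, with 11.16 with MYOSIN10 shRNA and 11.96 with scramble shRNA.

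Among the members of the nuclear steps, DROSHA and XPO5 had no called probe set, and DGCR8 was not read. DROSHA, read by 1 probe set, stood at 12.00, 12.14 and 12.03 with MYOSIN10 shRNA and at 12.04, 12.24 and 11.95 with scramble shRNA. The groups overlapped, with a log2 fold change of -0.02 ± 0.09 (SE). XPO5, the export receptor, had 3 kept probe sets that disagreed in sign. The brightest, 223056_s_at, had 11.31, 11.25 and 11.26 with MYOSIN10 shRNA and 11.37, 11.51 and 11.51 with scramble shRNA. Probe set 223055_s_at had 9.82, 10.03 and 9.86 with MYOSIN10 shRNA and 9.52, 9.76 and 9.74 with scramble shRNA. Neither pair of groups overlapped, yet the log2 fold changes were -0.19 ± 0.08 and 0.23 ± 0.11 (SE). The third, 223057_s_at, stood at -0.20 ± 0.12 (SE) with overlap.

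Among the partners of DICER1 after export, 0 probe sets of TARBP2, AGO2 and TNRC6B were called (limma). TARBP2 had 9.22, 9.26 and 9.23 at 203677_s_at with MYOSIN10 shRNA and 9.44, 9.30 and 9.62 with scramble shRNA, a log2 fold change of -0.22 ± 0.12 (SE) without overlap. Its second probe set, 239389_at, was dim and stood at -0.12 ± 0.39 (SE). AGO2, the small RNA-guided nuclease, had 9.98, 10.21 and 9.71 with MYOSIN10 shRNA and 9.60, 9.91 and 9.47 with scramble shRNA. Its groups overlapped, at 0.31 ± 0.15 (SE). TNRC6B, the scaffold that joins Argonaute to deadenylases, had 7 kept probe sets, of which 6 had positive and 1 had negative log2 fold changes, from -0.08 to 0.25. Its brightest, 1558142_at, stood at 0.18 ± 0.12 (SE), and the single one without overlap was 238468_at, at 8.20, 8.21 and 8.30 with MYOSIN10 shRNA against 8.01, 7.85 and 8.09 with scramble shRNA.

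LIN28B, the let-7 antagonist, was too dim to be tested, and HMGA1, the paralogue of HMGA2, was not called. The LIN28B probe set was near the floor, at 4.91, 5.58 and 4.24 with MYOSIN10 shRNA and 5.59, 5.13 and 5.98 with scramble shRNA, between the 6.75th and 48th percentile of the arrays, and did not pass the filter. HMGA1 was bright at 206074_s_at, with 12.87, 12.98 and 12.73 in MYOSIN10 shRNA cells and 12.89, 12.89 and 13.11 in scramble cells. The groups overlapped, with a log2 fold change of -0.11 ± 0.09 (SE). Its dimmer probe set, 210457_x_at, stood at 0.20 ± 0.17 (SE), also with overlap.

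**Figure D2:**
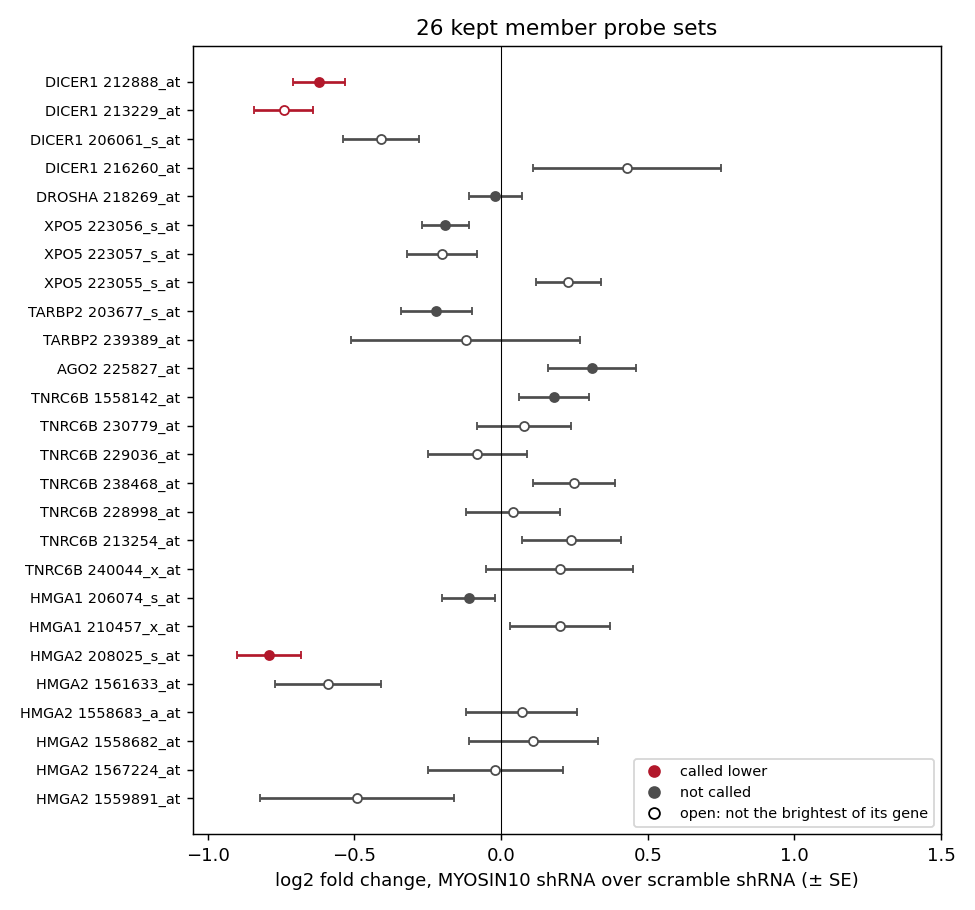
Points are the log2 fold changes, MYOSIN10 shRNA over scramble shRNA, of the 26 kept member probe sets, with SE as whiskers, red where called and open where another probe set of the gene is brighter. The 3 called points lie between -0.79 and -0.62, and 12 of the 26 lie above 0.

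Over the 6 arrays, the brightest probe sets of DICER1 and HMGA2 correlated at r = 0.96, a description over 6 points that share their arrays and fall into 2 groups. By the same measure, the genes most like DICER1 among 7079 genes of at least median signal were SLC11A2, an iron transporter (r = 0.999), TMEM170A (0.998) and NFATC2IP (0.996). SLC11A2 had 10.71, 10.81 and 10.71 with MYOSIN10 shRNA and 11.16, 11.07 and 11.17 with scramble shRNA, so the arrays numbered 2 were the nearest to the other group, as they were for DICER1. Of the 7079, 267 had an r above 0.9 with DICER1 and 344 with HMGA2. Most like HMGA2 were ATF4, the transcription factor of amino acid stress (r = 0.998), ASNS, which makes asparagine (0.996), and FAM200B (0.996). ASNS had 10.31, 10.29 and 10.30 with MYOSIN10 shRNA and 11.98, 11.21 and 11.84 with scramble shRNA, with scramble array 2 again in between. Log2 fold changes were -0.39, -0.44 and -0.54 for the 3 genes like DICER1 and -0.50, -1.38 and -0.37 for those like HMGA2, and NFATC2IP, ATF4 and ASNS were called.

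The rest of the pathway was read from 7 lists drawn from general knowledge, with each gene taken at its brightest kept probe set. Over all 14174 genes 1.39% were called, 1.05% higher and 0.339% lower, with a median log2 fold change of 0.009, and 15.1% had an unadjusted p under 0.05. Microprocessor cofactors and nuclear export factors had 13 measured genes, of which 0 were called higher, 1 lower and 12 not, 3 had an unadjusted p under 0.05, and the median was 0.071. NCBP2, the small subunit of the nuclear cap-binding complex, fell, with 11.52, 11.78 and 11.77 in MYOSIN10 shRNA cells and 12.21, 12.15 and 12.11 in scramble cells. Its log2 fold change was -0.46 ± 0.09 (SE, limma adjusted p = 0.03). The groups did not overlap, and its other probe set stood at -0.16. The call of NCBP2 held without either array numbered 2 and ended without each of the other 4 (limma adjusted p from 0.0914 to 0.17). It ended too with no filter on dim signal (0.0726).

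Argonaute partners and loading chaperones gave 0 calls among 19 measured genes (limma), 2 of them at an unadjusted p under 0.05, with a median of 0.04. TNRC6C, a paralogue of TNRC6B, stood at 0.48 ± 0.15 (SE, limma adjusted p = 0.172) at its brightest probe set, while 2 of its 4 others were negative. DDX6, a helicase of P-bodies, stood at 0.27 (limma adjusted p = 0.212). The other Argonautes, named for their role, lay at 0.01 for AGO1, 0.23 for AGO3 and -0.06 for AGO4 at their brightest probe sets, and PRKRA, the second double-stranded RNA-binding partner of DICER1, at 0.00. All 3 other kept AGO3 probe sets were negative, and the others of AGO1 and of AGO4 had both signs. Without scramble array 2, 1 gene of this list was called, TNRC6A, lower at -0.36, where 2.53% of all genes were called lower. With all 6 arrays TNRC6A stood at -0.22 (limma adjusted p = 0.448) with overlap, and its 5 other kept probe sets had both signs.

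Deadenylation and decapping effectors, which carry out the decay of silenced messages, gave 0 calls among 22 (limma), 5 at an unadjusted p under 0.05, with a median of -0.037. The decapping enzyme DCP2 had 10.86, 10.71 and 10.88 with MYOSIN10 shRNA and 11.30, 10.96 and 11.32 with scramble shRNA, without overlap, at -0.37 ± 0.11 (SE, limma adjusted p = 0.15). The deadenylase CNOT6 stood at -0.33 (limma adjusted p = 0.155). Without scramble array 2 these 2 genes were called lower, at -0.49 and -0.39. In that setting 2.53% of all genes were called lower, against 0.339% with all 6 arrays. With all 6 arrays the other CNOT6 probe set stood at -0.08, and the 2 other kept DCP2 probe sets were negative. Enzymes of precursor tailing and turnover gave 0 calls among 8 (limma), 0 at an unadjusted p under 0.05, with a median of 0.11. TUT4, which adds uridines to let-7 precursors held by LIN28 proteins, stood at 0.21 (limma adjusted p = 0.564) and the deadenylase PARN at 0.16 (limma adjusted p = 0.545).

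**Figure D3:**
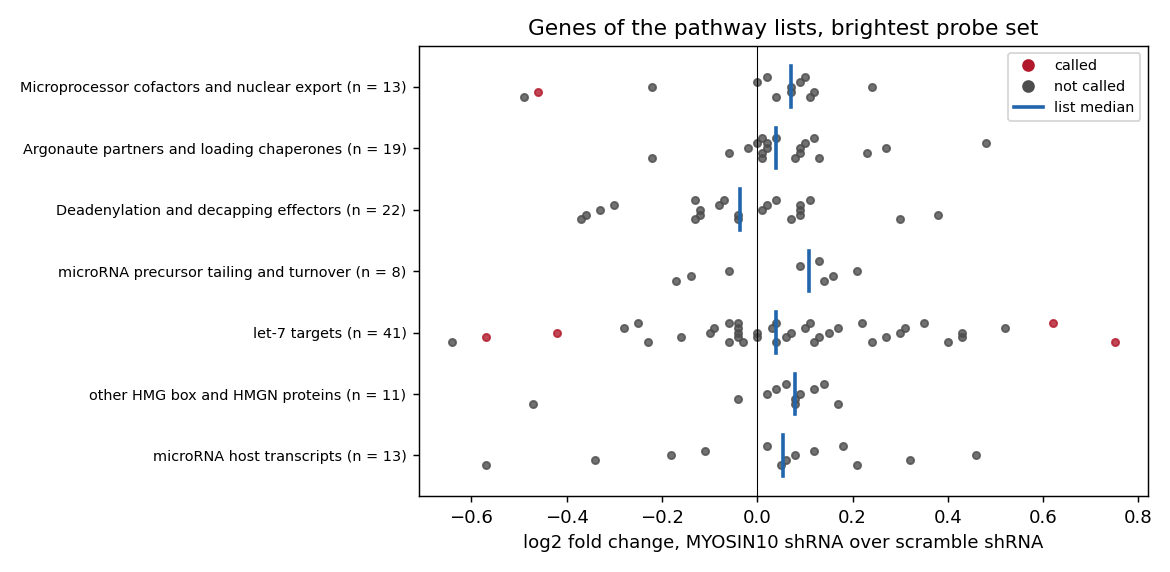
Each point is 1 gene's log2 fold change, MYOSIN10 shRNA over scramble shRNA, by list, with called genes in red and the list median as a blue line. Vertical offsets only separate the points. List medians lie between -0.037 and 0.11.

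Other let-7 targets moved both ways. Of 41 measured genes outside the 10, 2 were called higher, 2 lower and 37 not, and 11 had an unadjusted p under 0.05. There were 24 positive and 17 negative log2 fold changes, with a median of 0.039. HRAS, a small GTPase of growth factor signalling, rose, with 11.45, 11.55 and 11.42 in MYOSIN10 shRNA cells and 10.62, 10.94 and 10.62 in scramble cells (log2 fold change 0.75 ± 0.10 SE, limma adjusted p = 0.00598). All knockdown arrays were above all scramble arrays. E2F2, a transcription factor of S phase entry, rose, with 9.29, 9.02 and 9.16 in MYOSIN10 shRNA cells and 8.69, 8.42 and 8.51 in scramble cells (0.62 ± 0.13 SE, limma adjusted p = 0.0495), and its other probe set stood at -0.34.

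The G1 kinase CDK6 fell, with 11.66, 11.89 and 11.58 in MYOSIN10 shRNA cells and 12.25, 12.21 and 12.39 in scramble cells (-0.57 ± 0.10 SE, limma adjusted p = 0.0133). Its groups did not overlap, and its 6 other kept probe sets were all negative, of which 224848_at and 224851_at were called at -0.72 and -0.76. IGF2BP2, a protein that binds and stabilises messages, fell, with 12.24, 12.24 and 12.18 in MYOSIN10 shRNA cells and 12.55, 12.59 and 12.79 in scramble cells (-0.42 ± 0.08 SE, limma adjusted p = 0.0306). The second IGF2BP2 probe set stood at -0.57, uncalled. Outside the naming rule, the oncogene MYC at -0.06 and IGF2BP3 at -0.06, both well-known targets, were not called (limma adjusted p = 0.813 and 0.828). Also outside it, IGF1R stood at 0.52 ± 0.12 (SE, limma adjusted p = 0.0681) without overlap, and its 3 other kept probe sets were positive. IGF1R was called with array weights and with the replicate block, where calls over all probe sets rose too, to 949 and 891.

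The let-7 target calls varied with the arrays. Without scramble array 2, 4 were called higher and 4 lower, HRAS, E2F2, CDK6 and IGF2BP2 among them, but calls rose over all genes too, to 3.49% higher and 2.53% lower of 13731. The number of let-7 targets called was 3 without MYOSIN10 shRNA array 2, 1 without MYOSIN10 shRNA array 1 or 3 or scramble array 3, and 0 without scramble array 1. Calls over all probe sets fell too, from 353 with all 6 arrays to 263 without MYOSIN10 shRNA array 2. They numbered 65 and 94 without MYOSIN10 shRNA array 1 or 3, and 58 and 74 without scramble array 1 or 3. HRAS lost its call only without scramble array 1 (limma adjusted p = 0.0533) among the 6 arrays. CDK6 lost it without MYOSIN10 shRNA array 1 (0.0923) or 3 (0.0914) or scramble array 1 (0.0786) or 3 (0.0957). E2F2 and IGF2BP2 kept theirs without scramble array 2 and lost them without each of the other 5 (limma adjusted p from 0.0609 to 0.226 and from 0.067 to 0.157). The E2F2 call also ended with 1 added before log2 (0.0534), no filter (0.0957) and quantile normalization (0.058), and stood in 8 of 17 other settings. The IGF2BP2 call also ended with no filter (0.078) and median centring (0.0768), and stood in 9 of the 17. Without a variance trend the calls of NCBP2, HRAS, E2F2, CDK6 and IGF2BP2 all ended.

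**Figure D4:**
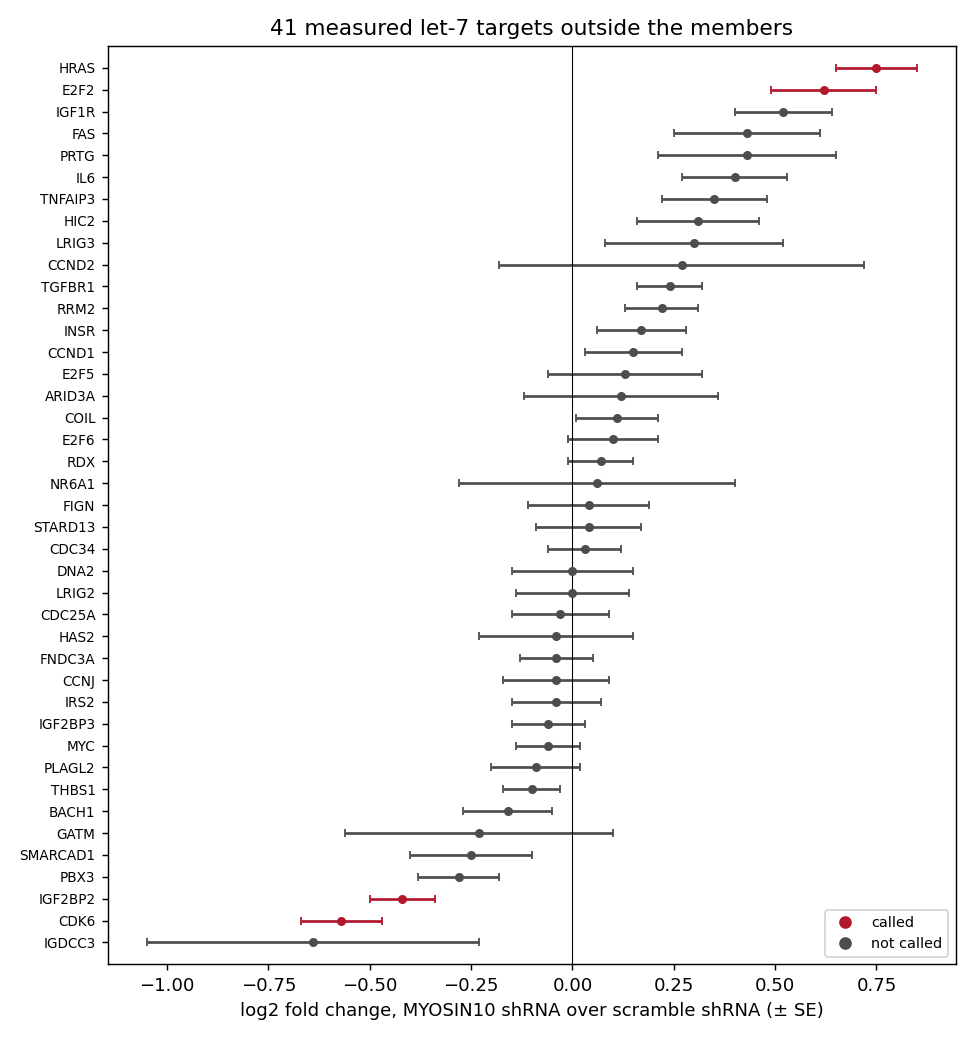
Points are log2 fold changes, MYOSIN10 shRNA over scramble shRNA, of 41 let-7 targets at their brightest kept probe set, with SE as whiskers and called genes in red. HRAS at 0.75 and E2F2 at 0.62 lie at the top, and IGF2BP2 at -0.42 and CDK6 at -0.57 near the bottom, above the uncalled IGDCC3 at -0.64.

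Of 11 measured HMG box and HMGN genes, which encode other nuclear architectural proteins, 0 were called (limma), 0 had an unadjusted p under 0.05, and the median was 0.079. HMGB2 stood at 0.17 (limma adjusted p = 0.39) and HMGN2 at 0.14 (limma adjusted p = 0.457). Transcripts that host microRNAs gave 0 calls among 13 (limma), 2 at an unadjusted p under 0.05, with a median of 0.055. MEST stood at 0.46 (limma adjusted p = 0.114).

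A few of the measured host transcripts overlap let-7 family loci in RefSeq. MIR100HG, which spans MIRLET7A2, had 10.10, 9.97 and 9.95 with MYOSIN10 shRNA and 9.90, 9.35 and 9.80 with scramble shRNA, a log2 fold change of 0.32 ± 0.14 (SE, limma adjusted p = 0.348). HUWE1, a ubiquitin ligase whose gene spans MIRLET7F2 and MIR98, stood at 0.06 (limma adjusted p = 0.824), and WDR82, whose gene spans MIRLET7G, at 0.18 (0.533). The level of a host message does not give the level of the microRNA within it.

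**Figure D5:**
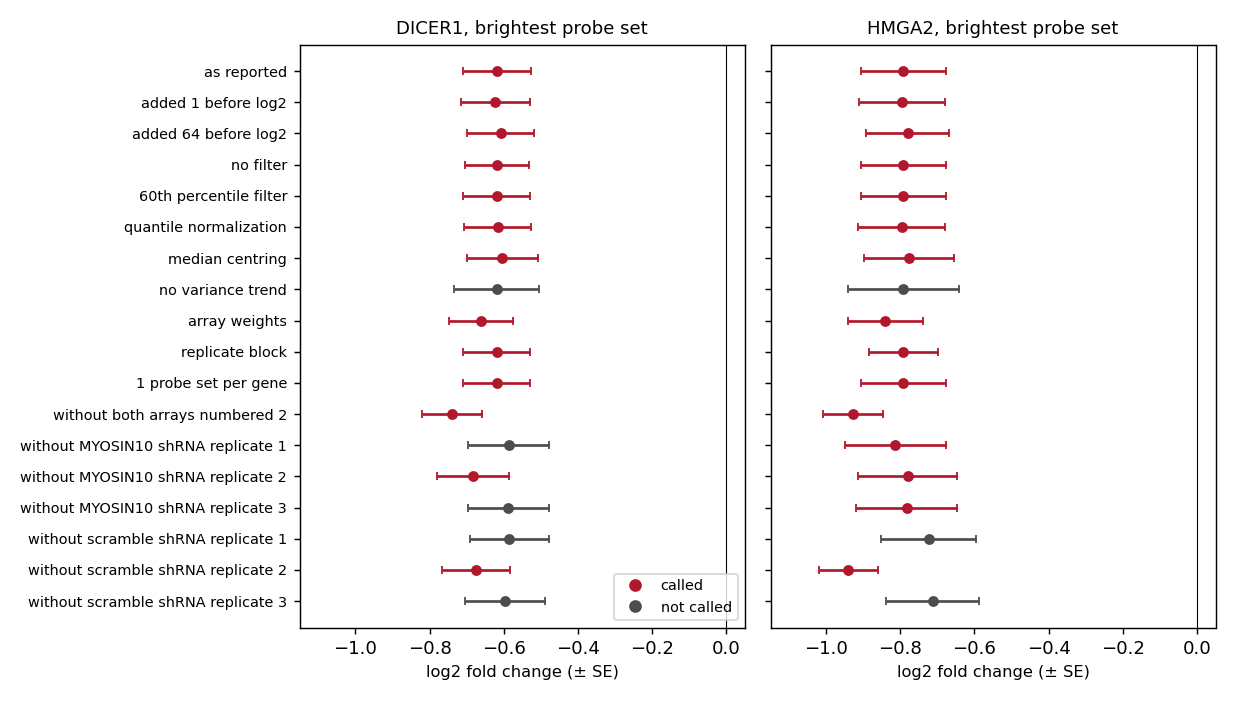
Log2 fold changes, MYOSIN10 shRNA over scramble shRNA, with SE as whiskers, are drawn for the brightest DICER1 (left) and HMGA2 (right) probe sets as reported and under 17 other settings, red where called. Each point is below 0, with DICER1 from -0.739 to -0.585 and HMGA2 from -0.94 to -0.713.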

How the data were processed

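Per the submitters' processing notes, the authors computed MAS5 signals, 1 per probe set and array. The deposited numbers are on a log2 scale, judged from their range and because the linear means, trimmed by 2% at either end, all lay between 500.07 and 500.08. Scaling each array to 1 mean hides a change of total RNA per cell. Arrays carry no read depth, and 3 arrays per group limit the precision. Each value was turned back to linear signal, raised by 16 and put on the log2 scale again. Probe sets at or above the 40th percentile of their array on 3 or more of the 6 arrays were kept. Symbols came from the platform annotation, and for 41043 of 41097 probe sets with 1 symbol the RefSeq (GRCh38.p14) symbol of the same gene number was used, changed or not. limma 3.58.1 (R 4.3.3) compared the groups, with a variance trend in eBayes, no term other than group, two-sided tests and Benjamini-Hochberg adjustment over 33370 probe sets, and the steps were tested on simulated data. Named are all members, up to 4 called genes of each list by size of change (2 with the smallest p where none was called) and the 3 genes most like DICER1 and HMGA2. Members and lists were chosen with earlier results of these data known. Settings tried as alternatives were the pseudocount, the filter, the scaling, the variance model, array weights, the replicate block, 1 probe set per gene and arrays left out. Figures used Python 3.11.15 and matplotlib 3.10.9.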

Additional observations from a re-analysis of the deposited data

How the results depend on the processing

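Across 17 other settings DICER1 (212888_at) and HMGA2 (208025_s_at) stayed negative, and they were called in 12 and 14 of them. eBayes without a variance trend ended both calls (-0.619 and -0.792, limma adjusted p = 0.208 and 0.212), left 0 member probe sets and 0 of all 33370 called (limma), with 3665 at an unadjusted p under 0.05, and the cause was not tested. Leaving out 1 array at a time gave -0.683 to -0.585 for DICER1, -0.94 to -0.713 for HMGA2, 1 to 3 called member probe sets and 58 to 1468 called probe sets in all, where 353 were called with all 6. That total was 173 with no filter, 949 with array weights, 229 with 1 probe set per gene (14174 tested) and 1755 without both arrays numbered 2, where the HMGA2 probe set 1561633_at was called too. With the replicate number as a block 891 were called, the same 3 member probe sets among them. Whether the numbers mark pairs is not stated, and the main fit did not take them as pairs. The deviations of same-numbered arrays from their group means correlated at r = 0.0328, 0.118 and 0.0132. Those of differently numbered arrays were not compared, so these values do not settle the pairing. Dim signal limits LIN28B and 5 other member probe sets, which the filter kept out of the test.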
